A study of Mus musculus with 8 samples.

Results

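Wnt proteins are secreted lipid-modified ligands that bind Frizzled receptors on the surface of neighbouring cells. Lrp5 and Lrp6 are co-receptors, and a ligand that joins a Frizzled and an Lrp co-receptor stabilises beta-catenin, which then acts on target genes with the Tcf and Lef factors. R-spondins are secreted proteins that bind Lgr receptors and keep Frizzleds on the cell surface by removing the ubiquitin ligases Znrf3 and Rnf43. In skin, Wnt signalling is known to be needed for hair follicle formation and for the growth phase of the hair cycle, and Frizzleds also carry signals that do not use beta-catenin, among them the planar polarity that orients hairs.

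The ligand and receptor genes described here were taken by name: Wnt, Fzd or Rspo followed by a digit, plus Lrp5 and Lrp6. They are 35 of the 20259 genes with a symbol of their own on the array, made up of 19 Wnt ligands, 10 Frizzled receptors, 4 R-spondins and the 2 co-receptors. The study measured gene expression in whole-skin biopsies of early wound scars, by Affymetrix exon array, in mice of a strain labelled low regeneration (low 1 to low 4) and of a strain labelled high regeneration (high 1 to high 4). In wound-induced hair neogenesis new follicles form in a healing skin wound of an adult mouse, and the question was which transcripts differ early between strains that do this to different degrees. Each group had 4 arrays, and the design text speaks of 4 mice per strain. The strain names, the ages of the mice and the day of biopsy are not stated in the labels, no treatment is named in the labels, and strain and regeneration level cannot be told apart. Values are log2 expression values, on which a difference of 1 is a doubling of signal, and each change is high minus low.

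The biopsies held the transcripts of skin. The mean log2 value of 11 epidermal genes lay between 11.49 and 11.87 and that of 10 fibroblast genes between 10.58 and 10.77 over the 8 arrays. Some arrays stood apart. The mean of 22 skeletal muscle genes was 9.38 in low 3 and 10.04 in low 4, and the 6 others had means of 6.75 to 6.92. The mean of 8 adipocyte genes was 7.98 and 8.06 in these arrays, compared with 6.72 to 7.19. The arrays low 2, low 4 and high 4 carried signal of the Y-linked gene Eif2s3y at 7.67, 7.57 and 7.70, and the others lay at 4.08 to 4.76. They were not alike in Xist, a transcript that females make to silence an X chromosome. Its level was 9.60 in low 2 and 10.05 in low 4, but 6.11 in high 4, while the 5 others lay at 12.74 to 12.93. Low 2 and low 4 thus held both signals, and what RNA was put on these arrays is stated only as far as the count of mice. Over all genes, 376 were higher and 500 lower in high regeneration in limma, at a Benjamini-Hochberg adjusted p under 0.05 over all genes, which is the rule for a call throughout.

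Only 1 of the 35 ligand and receptor genes was called. Fzd7, a Frizzled receptor, fell by 0.52 ± 0.10 (SE) on the log2 scale, so its signal was 1.43-fold higher in the low-regeneration scars (limma, adjusted p = 0.0215). None of the 19 Wnt ligands, of the 4 R-spondins or of the co-receptors was called in either direction. A share of 4.32% of all genes was called (1.86% higher and 2.47% lower), and 1 of 35 genes is 2.86%, which is near or under that background. At an unadjusted p under 0.05 there were 11 of the 35 genes, against 21.8% of all genes. These 11 were 7 Frizzleds, Lrp6 and Rspo1 with lower estimates, and Wnt5a and Wnt2b with higher ones.

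**Figure D1:**
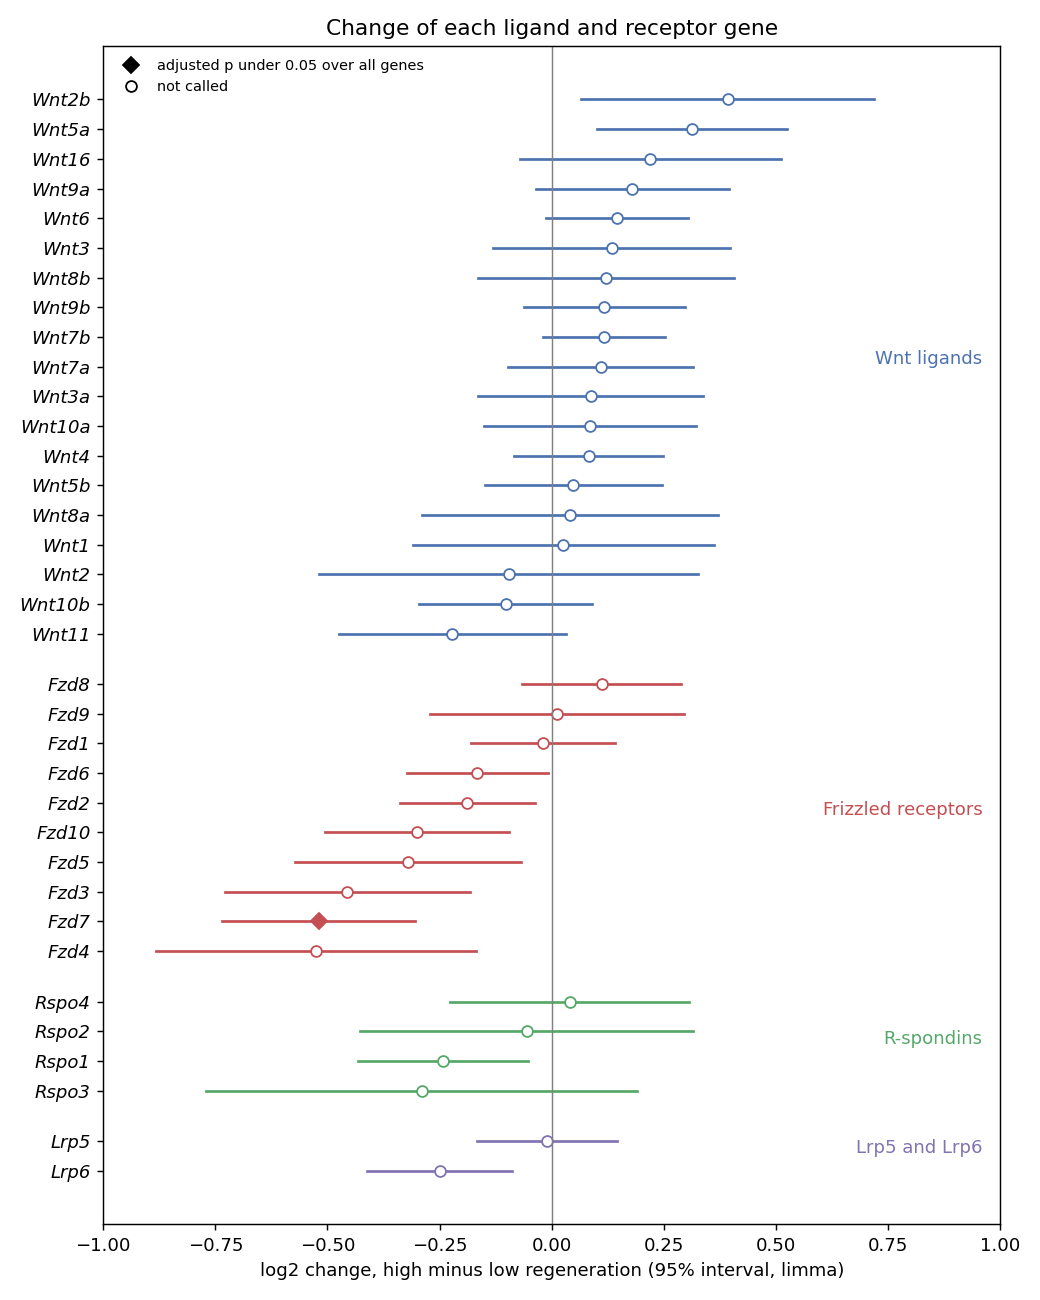
Change of each of the 35 genes between high and low regeneration, in log2 units on the horizontal axis, ordered by role and size, with bars for the 95% intervals of the limma fit. Fzd7 (filled diamond, -0.52) is the called gene. Of the Frizzleds 8 of 10 estimates lie left of 0, and of the Wnt ligands 16 of 19 lie right of it (13 after median centring or cyclic loess, and 11 with the muscle mean as a covariate).

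The estimates of the ligands and of the receptors had different signs. The Frizzleds had a median change of -0.24 with 8 of 10 estimates negative, and the Wnt ligands a median of 0.11 with 16 of 19 positive. All genes had a median of 0.03, with 11587 of 20259 estimates positive and 8672 negative. Median centring of the arrays gave medians of -0.31 for the Frizzleds and 0.05 for the ligands, with 9 and 6 estimates negative, so 3 ligands changed sign with that scaling. Over the 24 processing alternatives the Frizzled median ran from -0.31 to -0.20 and the ligand median from 0.05 to 0.15. The number of positive ligand estimates depended on the arrays used. It was 12 of 19 without low 3, 12 without low 3 and low 4, and 11 with the muscle mean as a covariate. It stayed at 16 without low 4 alone, the array with the most muscle signal, and was 13 without high 3. Low 3 had the lowest array median (6.09) and high 3 the highest (6.29). The Frizzleds had 7 to 9 negative estimates in all alternatives. The mean log2 value of the 10 Frizzleds was 8.68 to 8.90 in the low arrays and 8.44 to 8.56 in the high arrays. That of the 19 ligands was 7.43 to 7.66 and 7.59 to 7.71, which overlap.

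Fzd7 is a receptor of the subfamily that also holds Fzd1 and Fzd2. Its values were 8.77, 8.79, 8.89 and 9.04 in low 1 to low 4, and 8.34, 8.43, 8.13 and 8.50 in high 1 to high 4. Every low array lay above every high array. The group means were 8.87 ± 0.13 (SD, n = 4) and 8.35 ± 0.16. The groups did not overlap in 6 of the 35 genes, against 14.5% of all genes. With lower values in high regeneration these were Fzd7, Fzd5, Fzd2, Fzd6 and Lrp6 (7.29% of all genes), and with higher values Wnt5a (7.19% of all genes).

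The promoter of Fzd7 is shown beside that of its relative Fzd1 because Fzd7 was called and Fzd1 had an estimate near 0. Each line gives the 250 bases before the RefSeq start on GRCm38.p6, 5′ to 3′ on the gene's strand. Capitals mark the GC box (GGGCGG) or the core of the Tcf and Lef motif (CTTTGA), on either strand, with overlapping GC boxes counted separately.
Fzd7, chr1:59481897-59482146, plus strand: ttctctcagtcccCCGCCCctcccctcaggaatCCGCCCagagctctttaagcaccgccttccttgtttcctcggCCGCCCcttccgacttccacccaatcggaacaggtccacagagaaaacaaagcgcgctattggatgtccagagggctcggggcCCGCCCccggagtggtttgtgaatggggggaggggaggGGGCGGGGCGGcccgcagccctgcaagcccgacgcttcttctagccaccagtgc
Fzd1, chr5:4758217-4758466, minus strand: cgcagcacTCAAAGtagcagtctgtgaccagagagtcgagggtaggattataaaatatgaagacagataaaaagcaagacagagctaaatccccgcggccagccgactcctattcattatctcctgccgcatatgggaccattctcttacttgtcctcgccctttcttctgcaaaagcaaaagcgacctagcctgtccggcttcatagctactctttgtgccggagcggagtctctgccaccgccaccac
The Fzd7 window holds 6 GC boxes and 0 Tcf and Lef cores, and its G and C content is 65.2%. The Fzd1 window holds 0 GC boxes and 1 Tcf and Lef core, at 51.2% G and C. RefSeq promoters were found for 23 of the 35 genes, 26 windows in all, of which 19 held a GC box and 3 a Tcf and Lef core. Of all 32851 promoter windows of the same length 32.7% held a GC box and 13.8% the Tcf and Lef core. These matches describe the letters of the windows and are not evidence of binding.

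The Fzd7 call was close to the threshold. It was lost when low 2 (adjusted p = 0.0502), low 3 (0.0544), low 4 (0.0545), high 1 (0.0525) or high 3 (0.0515) was left out, with limma changes between -0.55 and -0.45. Without the muscle-rich low 3 and low 4 the change was -0.42 ± 0.11 (SE) at an adjusted p of 0.120, and with the muscle mean as a covariate it was -0.42 at 0.107. Without the 3 arrays with Y-linked signal it was -0.53 at 0.227, in a fit of 2 against 3 arrays. The estimate was negative in all of these settings.

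**Figure D2:**
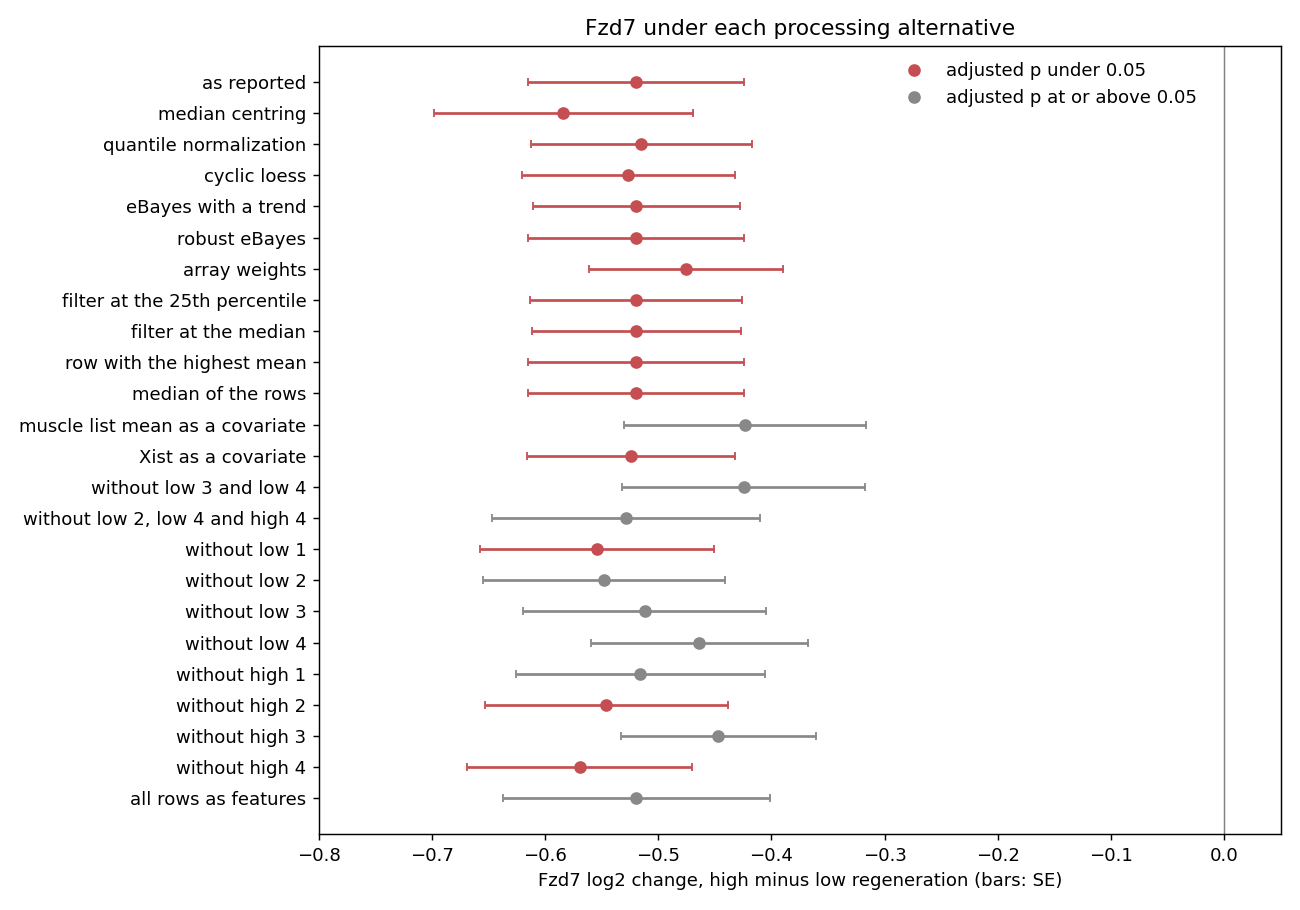
Log2 change of Fzd7 between high and low regeneration (horizontal axis, bars are SE) as reported and under 23 alternatives. The estimates lie between -0.58 and -0.42. The adjusted p was under 0.05 in 14 of the 23 (red) and at or above it in 9 (grey). The alternative with the replicate block, in which Fzd7 also lost its call (limma, adjusted p = 0.0615), is not drawn.

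Genes of the hair shaft and of pigment cells were also lower in the high-regeneration scars. Of 19 hair shaft and root sheath genes 15 were lower and 0 higher, against 2.47% and 1.86% of all genes. The list's mean log2 value was 9.55 to 10.59 in the low arrays and 7.99 to 8.84 in the high arrays. Of 10 melanocyte genes 9 were lower, at list means of 7.68 to 8.16 and 6.59 to 7.02, and of 13 cell cycle genes 4 were lower, at 8.40 to 8.61 and 7.98 to 8.26. All 8 adipocyte and all 22 skeletal muscle genes also had negative estimates, with 0 called, and their list means were highest in low 3 and low 4. The dermal papilla genes were mixed. Of 12 such genes 1 was higher (Cxcr4, 0.55) and 1 lower (Hhip, -1.05), with 7 negative estimates and a median change of -0.02. At an unadjusted limma p under 0.05 there were 4 of the 12, against 21.8% of all genes. They were Hhip, Fgf7 (-0.75) and Fgf10 (-0.33) with lower values and Cxcr4 with higher ones. The list mean of the 12 was lower in each high array (7.62 to 7.70) than in each low array (7.70 to 7.97), by little. The endothelial estimates were mostly of the other sign. Of 8 endothelial genes 1 was higher (Emcn, 0.40) and 0 lower, with 7 positive estimates, 5 of them at an unadjusted limma p under 0.05. The endothelial list means were 8.06 to 8.20 and 8.19 to 8.47. Of 8 myeloid genes 7 also had positive estimates (median 0.16), and of 11 epidermal genes 8 (median 0.05), with 0 called in either list. The median of all genes was 0.03. No gene of these lists is listed at 0. The part of these genes in the Frizzled values was not tested. In whole-skin RNA, fewer cells of a type and less RNA per cell cannot be told apart.

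The other Frizzleds were not called. Fzd4, which is also the receptor of norrin in retinal vessels, had values of 9.19, 9.56, 9.73 and 10.04 in low 1 to low 4 and of 9.27, 9.09, 9.00 and 9.06 in high 1 to high 4. Low 1 lay within the range of the high arrays, and the highest values were those of the muscle-rich and adipocyte-rich low 3 and low 4. The estimate of -0.53 ± 0.16 (SE) was as large as that of Fzd7, with an adjusted p of 0.0995. It was -0.27 without low 3 and low 4, and it passed without low 1 (-0.67, limma adjusted p = 0.0239).

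Fzd3 and Fzd6 act in planar polarity, and Fzd6 is known to set hair orientation in mouse skin. Fzd3 was at 8.62, 8.94, 9.11 and 9.17 in the low arrays and at 8.63, 8.57, 8.36 and 8.47 in the high arrays. Its lowest low array, low 1, lay just under the highest high array, and its highest were again low 3 and low 4. The change of -0.46 ± 0.12 did not pass in the fit of all genes (limma, adjusted p = 0.0690). It passed without low 1 (-0.57, 0.0171) and after a filter at the median gene level (0.0460), and it was -0.28 without low 3 and low 4. Fzd6 was at 8.99, 9.10, 8.93 and 8.94 against 8.89, 8.83, 8.69 and 8.90. The groups lay side by side without overlap, and the change was -0.17 ± 0.07 (limma, adjusted p = 0.210).

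Fzd10 had values of 9.10, 9.00, 8.78 and 9.07 in the low arrays and of 8.77, 8.80, 8.56 and 8.62 in the high arrays, a change of -0.30 ± 0.09 (limma, adjusted p = 0.0997). Low 3 lay within the high range, while low 4 was among the highest values, and without low 3 and low 4 the change was -0.36. Fzd5 was at 8.62, 8.61, 8.52 and 8.99 against 8.27, 8.24, 8.50 and 8.46. Low 4 stood above the rest, and the lowest low array, low 3, lay just above the highest high array, high 3. The change was -0.32 ± 0.11 (limma, adjusted p = 0.143).

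Fzd2 was at 9.23, 9.14, 9.01 and 9.15 in the low arrays and at 9.00, 8.88, 8.90 and 9.00 in the high arrays. The difference was small and the spread was small, with a change of -0.19 ± 0.07 (limma, adjusted p = 0.149). The 3 remaining receptors had estimates near 0 or above it. Fzd1 had group means of 9.81 ± 0.10 (SD, n = 4) and 9.80 ± 0.07, with a 95% interval of the change from -0.18 to 0.14. Fzd9 had a change of 0.01 (interval -0.27 to 0.30). Fzd8 had a change of 0.11 (-0.07 to 0.29), and its 2 array rows gave 0.22 and 0.00. The first row had group means of 8.73 and 8.95 and the second of 4.91 and 4.91. In the first row every high array (8.85 to 9.13) lay above every low array (8.65 to 8.83). It was not called in the fit of all rows (limma, adjusted p = 0.429). The second row lay under the 25th percentile of gene means, 6.18, so the average joins rows of unlike level.

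**Figure D3:**
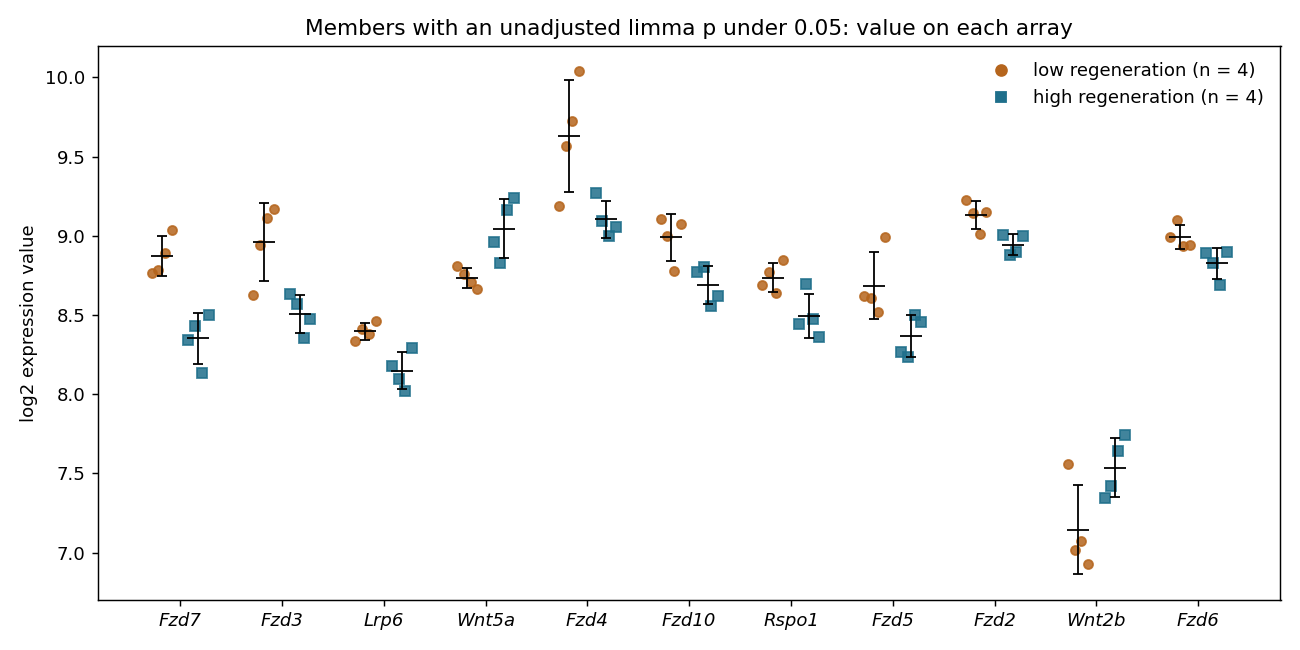
Log2 expression value on each array for the 11 genes with an unadjusted p under 0.05, in order of p. Circles are the 4 low-regeneration arrays and squares the 4 high-regeneration arrays, each in the order 1 to 4, and black bars are the mean and SD. Fzd7, the called gene, lies at 8.77 to 9.04 in low and 8.13 to 8.50 in high regeneration.

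The co-receptors gave unlike values. Lrp6 was at 8.34, 8.41, 8.38 and 8.46 in low 1 to low 4 and at 8.18, 8.09, 8.02 and 8.29 in high 1 to high 4. The groups did not overlap, and the change was -0.25 ± 0.07 (SE), which did not pass (limma, adjusted p = 0.0861, and 0.0502 to 0.393 over the alternatives). Lrp5, known in humans for its role in bone mass, had means of 9.23 ± 0.11 (SD, n = 4) and 9.22 ± 0.06. The 95% interval of its change was -0.17 to 0.15.

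Close relatives within the families were compared directly by the difference of their log2 values within each array, which does not depend on the scaling of that array. Over 14 such pairs, 3 reached the smallest p that an exact two-sided permutation test of 4 against 4 arrays can give, 0.0286. These were Fzd7 against Fzd1, Fzd5 against Fzd8 and Wnt5a against Wnt5b, in which the changes differed by -0.50, -0.43 and 0.26. The estimates of Lrp6 and Lrp5 differed by -0.24 (exact p = 0.0571), and those of Fzd7 and Fzd2 by -0.33 (exact p = 0.0571). After Benjamini-Hochberg adjustment over the 14 pairs 0 pairs passed, and the smallest adjusted value of the exact test was 0.114. With a smallest possible p of 0.0286, a few pairs at that value cannot pass this adjustment. It therefore cannot decide whether the relatives differ.

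Among the ligands, Wnt5a and Wnt2b had the smallest p. Wnt5a, a ligand best known for signalling without beta-catenin and made by dermal fibroblasts, was at 8.81, 8.76, 8.71 and 8.66 in low 1 to low 4 and at 8.96, 8.83, 9.16 and 9.24 in high 1 to high 4. Each high array lay above each low array, high 2 by the least. The change was 0.31 ± 0.09 (SE), a 1.24-fold difference, and did not pass (limma, adjusted p = 0.0979, and 0.0572 to 0.513 over the alternatives). The 10 fibroblast genes had a median change of 0.03 with 1 lower, Thy1, and 0 higher.

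Wnt2b, a ligand that acts through beta-catenin, was at 7.56, 7.02, 7.07 and 6.93 in the low arrays and at 7.34, 7.42, 7.64 and 7.74 in the high arrays. Low 1 lay above high 1 and high 2, and the other low arrays lay below all high arrays. The change was 0.39 ± 0.15 (limma, adjusted p = 0.163). Without low 1 it was 0.53 and passed (limma, adjusted p = 0.0311), and Wnt9a passed in that fit too, while without the 3 arrays with Y-linked signal it was 0.15. Wnt9a had group means of 8.69 ± 0.20 (SD, n = 4) and 8.87 ± 0.05 and a change of 0.18 with all arrays (limma, adjusted p = 0.300).

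The ligands best known from hair follicles gave small estimates. Wnt10b, which marks the early hair placode and the growing follicle in mice, had means of 8.39 ± 0.15 (SD, n = 4) and 8.29 ± 0.09 and a change of -0.10 with a 95% interval of -0.30 to 0.09. Wnt10a, whose loss in humans causes defects of hair, teeth and sweat glands, had an estimate of 0.09 (-0.15 to 0.32). Wnt3a and Wnt3 had estimates of 0.09 (-0.16 to 0.34) and 0.13 (-0.13 to 0.40). Wnt7b and Wnt7a, made by keratinocytes, had estimates of 0.12 (-0.02 to 0.25) and 0.11 (-0.10 to 0.32). Wnt4 had an estimate of 0.08 (-0.08 to 0.25), and Wnt6 one of 0.14 (-0.01 to 0.30). The intervals of these ligands reached up to 0.40 on the log2 scale, and differences inside them cannot be told from 0 with 4 arrays per group.

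The remaining ligands were Wnt1, Wnt2, Wnt5b, Wnt8a, Wnt8b, Wnt9b, Wnt11 and Wnt16. Wnt16 had a change of 0.22 ± 0.13 (SE) and Wnt11 one of -0.22 ± 0.11, which were the extremes among the 17 ligands with an unadjusted p of 0.05 or more. The 3 array rows of Wnt11 had changes of -0.14, -0.33 and -0.20. Wnt2 varied most within its groups, from 7.30 to 7.97 in the low arrays and from 7.02 to 7.75 in the high arrays, with a change of -0.10 (95% interval -0.52 to 0.33). Wnt1 (0.03), Wnt8a (0.04), Wnt8b (0.12), Wnt5b (0.05) and Wnt9b (0.12) had adjusted p-values of 0.411 to 0.933 in limma. Wnt1, Wnt8b and Rspo2 had mean levels under the 25th percentile of all genes, and 26 of the 35 genes lay at or above the median. No detection calls were used, so a low value can hold background.

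Of the R-spondins, Rspo1 was at 8.69, 8.77, 8.64 and 8.85 in low 1 to low 4 and at 8.44, 8.69, 8.47 and 8.36 in high 1 to high 4. High 2 lay within the low range, and the change was -0.24 ± 0.08 (SE; limma, adjusted p = 0.141). Without the 3 arrays with Y-linked signal it was -0.13. Rspo3 was at 6.88, 7.20, 7.75 and 7.79 in the low arrays and at 7.49, 7.08, 6.88 and 7.02 in the high arrays. Its highest values were those of low 3 and low 4, low 1 was as low as the lowest high array, and the change of -0.29 had a 95% interval of -0.77 to 0.19. Rspo2, known in dogs for its link to coat type, had an estimate of -0.06 (-0.43 to 0.32), with 0.08 and -0.19 in its 2 array rows. Rspo4, needed for nail growth in humans, had an estimate of 0.04 (-0.23 to 0.31).

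The other genes of the pathway were read from lists by role. Of 53 measured genes 7 were lower and 0 higher, against 2.47% of all genes lower, with a median change of -0.07. Among the 7 genes of R-spondin reception and Frizzled turnover, Lgr4, an R-spondin receptor, was lower. It was at 7.98, 8.30, 8.44 and 8.53 in low 1 to low 4 and at 7.72, 7.81, 7.52 and 7.65 in high 1 to high 4. All low arrays lay above all high arrays, and Lgr4 fell by 0.64 ± 0.12 (SE; limma, adjusted p = 0.0225). Lgr5, an R-spondin receptor and follicle stem cell marker, had a change of -1.02 ± 0.25 that did not pass (limma, adjusted p = 0.0563), from 10.29 to 10.69 in low and 8.90 to 10.19 in high regeneration. Lgr6 had a change of -0.37 and the ubiquitin ligase Znrf3 one of -0.25, both not called and both without overlap between the groups. Over the 53 genes the groups did not overlap in 18, against 14.5% of all genes. Of these, 16 were lower in high regeneration (7.29% of all genes). The 2 others, Kremen1 (0.13) and Pygo2 (0.17), were higher (7.19% of all genes) and not called.

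Among 8 other receptors and polarity genes Celsr1, a planar polarity cadherin, fell by 0.54 ± 0.11 (limma, adjusted p = 0.0333) and Gpc4, a cell-surface glypican, by 0.31 ± 0.07 (0.0440). In the nuclear list of 5 genes the transcription factors Lef1 and Tcf7l1 fell by 0.98 and 0.28, and of 12 secreted inhibitors Wif1, which binds Wnt ligands, fell by 1.03 ± 0.16 (limma, adjusted p = 0.0112). Among the inhibitors that were not called, Sfrp2 and Sfrp5 had changes of -0.60 and -0.35. Among the receptors Ryk and Ptk7, both Wnt-binding or Wnt-linked kinase-like receptors, had changes of -0.11 and 0.15, and of the nuclear genes Pygo2 and Bcl9, beta-catenin cofactors, 0.17 and 0.07, none of them called. Of 10 target genes Msx2, a homeobox factor of the hair matrix that is also in the hair list above, fell by 0.92 ± 0.13 (limma, adjusted p = 0.00888). Nkd2 (-0.49) and Tnfrsf19 (-0.53) were not called. Axin2, a widely used readout of beta-catenin signalling, had means of 8.60 ± 0.02 (SD, n = 4) and 8.51 ± 0.03, and its groups did not overlap. Its change of -0.08 ± 0.05 (SE) did not pass (limma, adjusted p = 0.363). In limma that SE draws on the variance of all genes, and it was larger than either SD of Axin2.

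The intracellular core and the secretion genes had 0 calls, and at an unadjusted limma p under 0.05 there were also 0 of 9 and 0 of 2. Ctnnb1, which encodes beta-catenin, had an estimate of -0.05 ± 0.07 (SE), and the 9 genes of the core ranged from -0.08 to 0.16, the values of the Dishevelled genes Dvl2 and Dvl1. Wls and Porcn, which carry and modify Wnt ligands, had estimates of -0.11 and 0.09. The count of 7 lower pathway genes was 3 when low 2, low 4, high 3 or high 4 was left out, and 3 without low 3 and low 4 together. It was 2 with the muscle mean as a covariate and 0 in the fit that left out the 3 Y-positive arrays.

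**Figure D4:**
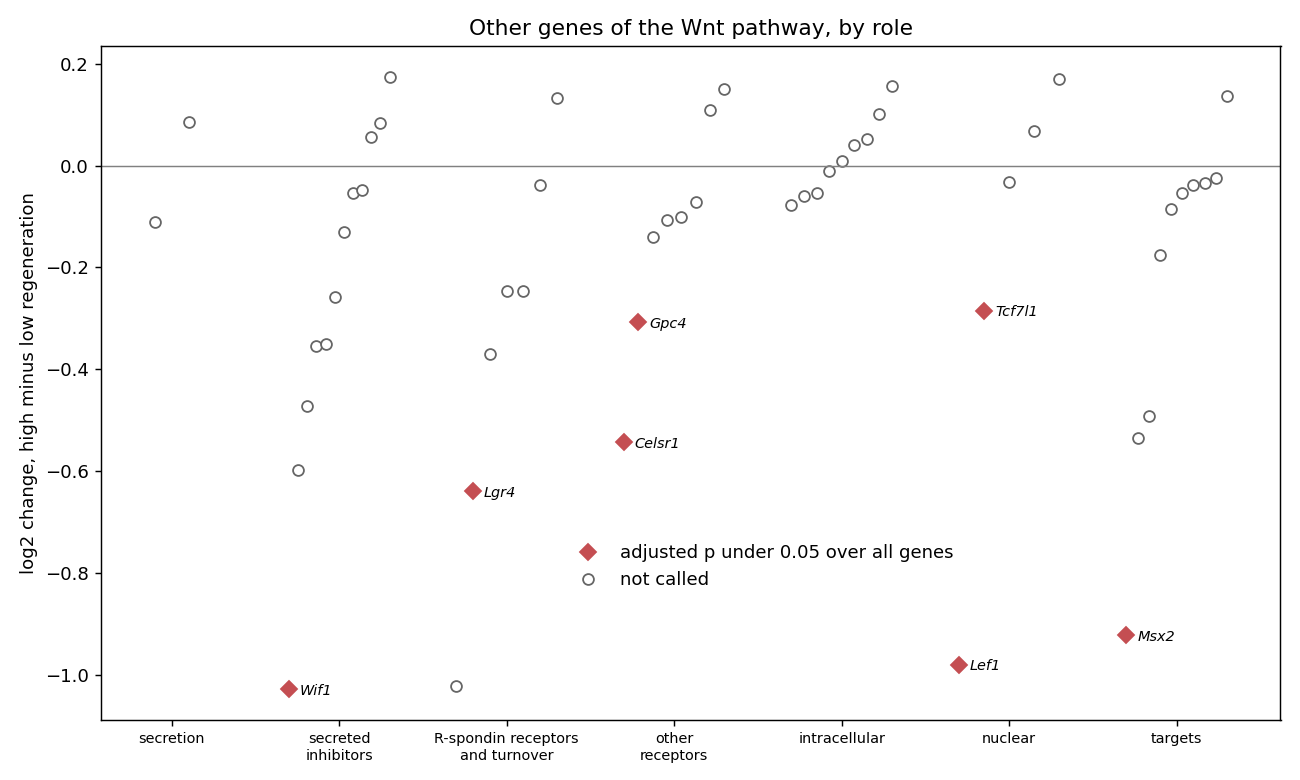
Log2 change between high and low regeneration (vertical axis) of the 53 other measured genes of the pathway, by role. Filled diamonds are the 7 called genes, all below 0, from Wif1 at -1.03 to Tcf7l1 at -0.28, and open circles are genes that were not called.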

How the data were processed

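Gene expression in wound scars of 2 groups of 4 mice was measured on 8 exon arrays. The deposited table holds log2 expression values for 115830 array rows. Affymetrix Expression Console and PLIER are named in the submitters' processing notes, and how background and array differences were handled is not stated there. The log2 unit was read from the range of the deposited values. Rows with 1 gene symbol in the platform annotation (25539 rows) were kept and averaged per gene on the log2 scale, which gave 20259 genes. All 35 ligand and receptor genes matched RefSeq by Entrez number, and 4 of them had several rows. No filter or centring was applied, since array medians differed by at most 0.20, under the limit of 0.5. That difference is larger than many of the changes given, as the median absolute change of the 35 genes was 0.12.

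High minus low regeneration was fitted with limma 3.58.1 in R 4.3.3 (lmFit and eBayes, two-sided) on all genes and arrays, with Benjamini-Hochberg adjustment over all genes. The fit was also run on simulated data. Recovery was required there only for planted changes larger than that of any ligand or receptor gene. Exact permutation tests used scipy 1.17.1. The number of arrays limits the precision. The labels' replicate numbers were checked as pairs: deviations of same-numbered arrays correlated at -0.26 to 0.02, so they were not treated as paired. The genes, pathway and marker lists, alternatives and pairs were chosen with earlier results of these data known. Genes are named by rule: every called ligand or receptor gene and those with an unadjusted p under 0.05 by array, the others by change or range, and of each pathway list the called genes and up to 2 more with the smallest p. Ctnnb1, Axin2, Lgr6, Kremen1, Thy1, Cxcr4, Hhip, Fgf7, Fgf10 and Emcn were named outside it, after their values were seen. Nothing in the labels beyond the count of mice says how samples were taken, so p-values measure the spread between these arrays.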

Additional observations from a re-analysis of the deposited data

Results flagged for a closer look

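Of 70 sets of 4 values, which are the 35 genes in each group, 1 had a sample far from the others by Dixon's criterion at the 95% level. Chance alone flags about 1 in 20 such sets, which is 3.5 of 70. The set was Wnt3a in high regeneration, where high 3 was at 7.83 and the next array at 7.63.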

How the results depend on the processing

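The 11 ligand and receptor genes with an unadjusted p under 0.05 kept their direction in all 24 alternatives, and Fzd7 was called in 14 of them. These genes were chosen by p on the same arrays, and several alternatives leave an estimate unchanged. The kept direction is therefore no independent support. The counts moved more. With the replicate block 105 genes were higher and 134 lower, with 0 ligand and receptor genes and 3 pathway genes lower, and Fzd7 had a limma adjusted p of 0.0615. In that check of the pairing 0 of 8 arrays correlated best with their own number. Median centring gave 212 higher genes. A filter at the median gave 2 lower ligand and receptor genes, Fzd7 and Fzd3. The muscle mean as a covariate gave 117 higher and 216 lower genes, with 0 ligand and receptor genes and 2 pathway genes lower. Without low 3 and low 4 there were 127 and 198, with 0 and 3 lower. Without low 2, low 4 and high 4 there were 5 and 10, with 0 and 0 lower. With all rows as features, which are more tests, 164 rows were higher and 228 lower, with 0 and 1 lower. With a single array left out, higher genes numbered 129 to 536 and lower genes 163 to 669, lower pathway genes 3 to 6, and ligand and receptor genes 0 to 2 higher and 0 to 3 lower. The largest of these counts were without low 1, and for the pathway genes also without high 2. No pathway gene was called higher in any alternative. The cause of these shifts was not tested.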
